A study of Rattus rattus with 8 samples.

Results

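Messenger RNA of 33 genes of the unfolded protein response and the integrated stress response was followed in sorted neonatal rat heart cell cultures. The genes were picked by name from a table of 30957 rat genes. They comprised 14 chaperones and folding enzymes of the endoplasmic reticulum (ER), 7 genes of ER-associated degradation (ERAD), 4 genes of the stress sensors and XBP1, and 8 genes of the ATF4 axis. Of these 33 genes, 32 had enough counts to enter the tests, which covered 12983 genes. The remaining one, Derl3 on chromosome 20, a Derlin family member, was listed at 0 in all 8 libraries.

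The study compared 4n with 2n cells, with 4 libraries in each group. Both groups were sorted by DNA content after staining with a Hoechst dye at 2 µg/mL from the same kind of culture, called neonatal rat cardiomyocytes (NRCM) in the labels. The cells came from SD rats 1 to 3 days old, were enriched by differential adherence and grown for 24 h with 0.2 mM AraC, a DNA synthesis inhibitor, and an insulin, transferrin and selenium supplement. They were then starved of serum and kept at 1% oxygen for 48 h. The 4n and the 2n cells had therefore both been through hypoxia and serum starvation, and no library from normal oxygen was among them. A 4n DNA content can come from a tetraploid nucleus, from a binucleate cell, from a cell that has replicated its DNA or from a doublet of cells, and the sort as described does not separate these. The 4 replicates of each group are described as independent experiments. Libraries with the same replicate number were taken as the 4n and the 2n fraction of 1 culture, and these are called cultures 1 to 4 here.

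Secreted and membrane proteins fold in the ER. When unfolded proteins build up there, the sensors ATF6, IRE1 (Ern1) and PERK (Eif2ak3) start the unfolded protein response. ATF6 and spliced XBP1, the product of IRE1's cut, raise chaperones and ERAD genes. PERK phosphorylates the translation factor eIF2α, which lowers general protein synthesis while allowing ATF4 to be made. Other eIF2α kinases, which respond to amino acid shortage, haem shortage or double-stranded RNA, reach ATF4 by the same step, and this shared route is the integrated stress response. In heart muscle both responses are known from ischaemia and pressure overload. Gene counts show neither the splicing of Xbp1 nor the translation of Atf4, so neither was measured here.

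The libraries held 14783521 to 21033772 counts. Mitochondrial genes took 3.71% to 25.9% of the counts in 4n and 2.87% to 3.82% in 2n libraries. All 11 cardiomyocyte markers were detected, none at 0, and together they made up 0.464% to 2.52% of counts in 4n and 0.0545% to 0.108% in 2n libraries. The 10 fibroblast markers, with Col1a2 listed at 0, made up 2.45% to 5.46% in 4n and 4.78% to 6.19% in 2n libraries, so that their sum exceeded that of the cardiomyocyte markers in every library but 4n replicate 3. The 6 endothelial markers summed to 0.00672% to 0.0360% in 4n and 0.00294% to 0.00601% in 2n libraries, with none at 0. The 6 smooth muscle and pericyte markers, with none at 0, summed to 0.0978% to 0.173% in 4n and 0.194% to 0.235% in 2n libraries. The 8 macrophage markers, of which 3 entered the tests, stayed at or below 0.00203% in 4n and 0.000994% in 2n libraries. In such bulk samples fewer cells of a type and less RNA per cell cannot be told apart.

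On the scale that divides by gene length (FPKM), the lectin chaperone Calr was the most abundant of the 33 genes. It averaged 615 ± 74.9 FPKM in 4n and 720 ± 159 FPKM in 2n cells (SD, n = 4 each). Hspa5, which encodes BiP, the main Hsp70 of the ER, followed with 534 ± 108 FPKM in 4n and 665 ± 116 FPKM in 2n cells. The disulfide isomerase Pdia3 averaged 440 ± 50.3 FPKM in 4n and 555 ± 65.6 FPKM in 2n cells. Atf4 itself stood next in 4n and in 2n cells, with 335 ± 104 FPKM in 4n and 425 ± 64.2 FPKM in 2n cells. Among the detected genes the sensor Ern1 was lowest, at 5.69 ± 1.99 FPKM in 4n and 7.56 ± 1.70 FPKM in 2n cells. The PERK gene Eif2ak3 was also low, at 7.33 ± 1.79 FPKM in 4n and 10.4 ± 1.54 FPKM in 2n cells. The FPKM values are scaled to totals that include the mitochondrial counts, so comparisons between libraries below use CPM, the counts scaled to library sizes that were adjusted by the TMM method.

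The first comparison asked whether 4n cells carried a different level of these stress genes than 2n cells. None of the 32 tested genes passed the threshold of 0.05 for the adjusted p of edgeR's quasi-likelihood test, against a background of 348 of all 12983 genes, or 2.68%, with 2.67% called higher and 0.00770% called lower in 4n. At an unadjusted p under 0.05 there were 3 genes, Sdf2l1, Manf and Sel1l, against 2256 of all 12983 genes. DESeq2 called 0 of the 32, against 6.82% of all genes. It had 3 of the 32 at an unadjusted p under 0.05, against 2635 of all genes. DESeq2 was run without the low-count filter, so its backgrounds are not out of the 12983 genes. The log2 fold changes of 4n over 2n were positive for 6 and negative for 26 of the 32 genes, with a median of -0.11, while the median over all genes tested was -0.01. All 6 positive values belonged to chaperones and folding enzymes. The CPM ranges of the groups did not overlap for 1 of the 32 genes, or 3.12%, against 11.4% of all genes.

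**Figure D1:**
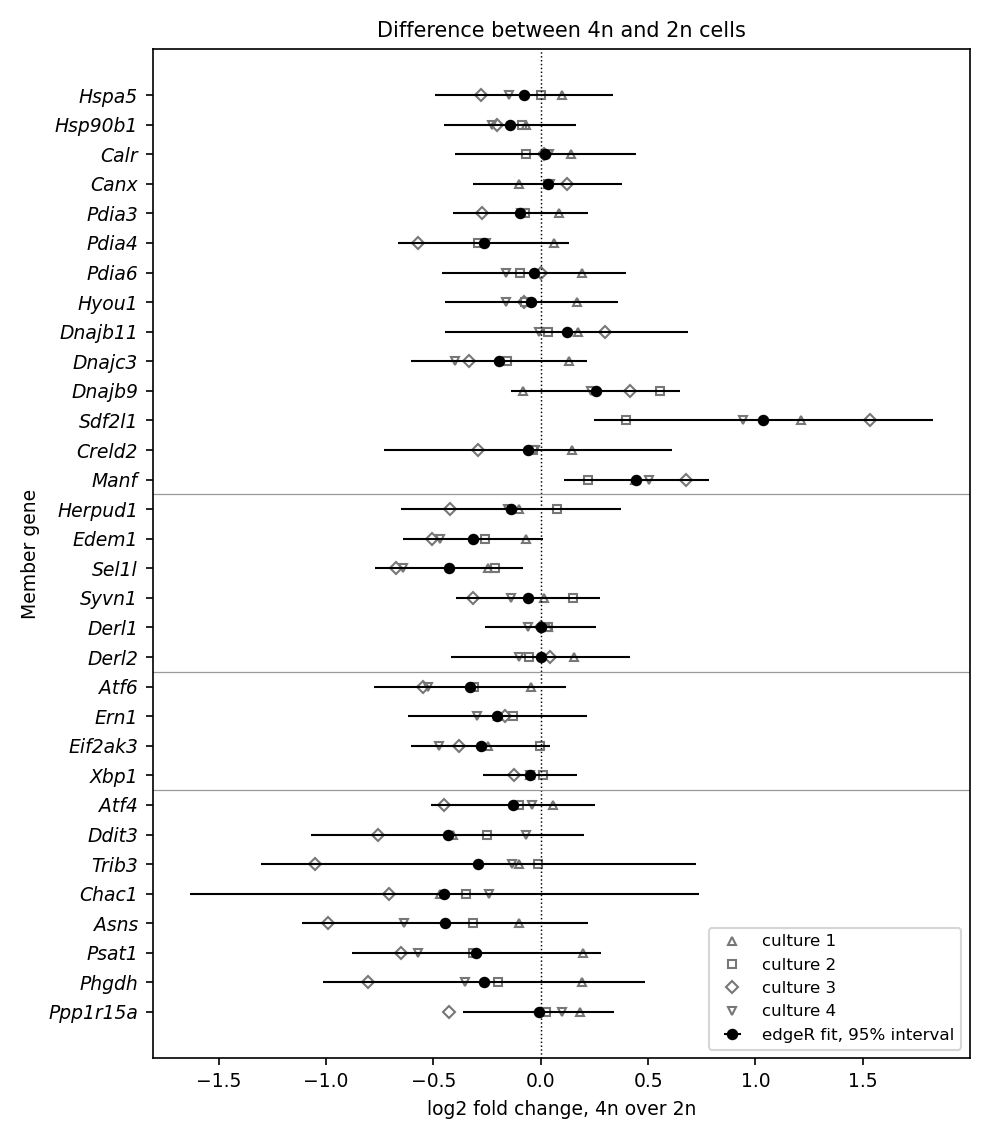
Log2 fold change of 4n over 2n (horizontal axis) for the 32 tested genes (vertical axis, grouped by role). Black points and bars are the edgeR estimate and its 95% interval, and open symbols are the differences within cultures 1 to 4. Sdf2l1 and Manf lie right of 0 in every culture, all 8 ATF4 axis estimates lie left of 0, and in these 8 genes the culture 3 symbol lies farthest left.

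Among the chaperones the master chaperone gene Hspa5 (chromosome 3, 13838304 to 13842762, Rnor_6.0) had 1405, 1906, 1389 and 1243 CPM in 4n replicates 1 to 4 and 1311, 1902, 1682 and 1378 CPM in 2n replicates 1 to 4. The groups overlapped almost fully, and both peaked in culture 2. The log2 fold change was -0.08 ± 0.18 (SE), with a 95% interval of -0.49 to 0.34 and an adjusted p of 0.860 in edgeR.

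Sdf2l1, which encodes a small ER protein found with BiP and its J-domain partners, had the highest positive estimate of the set. It had 10.7, 14.5, 25.4 and 11.4 CPM in 4n and 4.57, 11.0, 8.70 and 5.87 CPM in 2n replicates 1 to 4. The 4n library was the higher one in 4 of 4 cultures, although 4n replicate 1 lay below 2n replicate 2. The log2 fold change was 1.04 ± 0.35 with an adjusted p of 0.172 in edgeR. Manf, a BiP-binding ER protein that is also secreted, had 133, 141, 128 and 117 CPM in 4n and 98.3, 121, 79.8 and 82.5 CPM in 2n replicates 1 to 4. It too was higher in the 4n library of 4 of 4 cultures, with a log2 fold change of 0.44 ± 0.15 and an adjusted p of 0.173 in edgeR. With the culture as a replicate block, Sdf2l1 (log2 fold change 1.03 ± 0.20, adjusted p 0.0396 in edgeR) and Manf (0.46 ± 0.10, adjusted p 0.0475) were the only 2 of the 32 genes called, both higher in 4n. The background in the paired fit was 633 of 12983 genes, or 4.88%, with 4.27% higher and 0.608% lower in 4n. At an unadjusted p under 0.05 the paired fit had 9 of the 32 genes, against 3886 of all genes. Without culture 1 the paired fit called 5 genes, namely Sdf2l1, Sel1l, Atf6, Asns and Psat1, which is 15.6% of the 32 beside 12.7% of all genes. Without culture 3 it called 0 of the 32, beside 4.67% of all genes. There 7 of the 32 had an unadjusted p under 0.05, beside 2835 of all genes. Without culture 2 or 4 it called 0 of all genes tested, so the absence of calls there is not particular to these genes. In these fits 9 and 5 of the 32 had an unadjusted p under 0.05, beside 3266 and 2067 of all genes.

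The other chaperones lay closer to 0. The J-domain protein gene Dnajb9 had 39.7, 35.2, 39.7 and 42.4 CPM in 4n and 42.0, 23.9, 29.7 and 36.0 CPM in 2n replicates 1 to 4. Its 4n value was the higher one in 3 of 4 cultures, and the fold change of 0.26 ± 0.17 on the log2 scale did not pass (adjusted p 0.487 in edgeR). The disulfide isomerase gene Pdia4 had 338, 416, 269 and 326 CPM in 4n and 324, 509, 399 and 390 CPM in 2n replicates 1 to 4. Its log2 fold change of -0.27 ± 0.18 was the lowest among the chaperones and did not pass either (adjusted p 0.472 in edgeR). Over the 14 chaperones and folding enzymes, 6 log2 fold changes were positive and 8 negative, with a median of -0.04.

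Among the ERAD genes, which feed misfolded proteins back to the cytosol for destruction, all 6 tested log2 fold changes were negative, with a median of -0.10. Sel1l, the adaptor of the membrane ubiquitin ligase HRD1, was the one gene of the set whose groups did not overlap. It had 329, 336, 262 and 222 CPM in 4n and 390, 390, 419 and 346 CPM in 2n replicates 1 to 4. The log2 fold change was -0.43 ± 0.15, with an adjusted p of 0.201 in edgeR and 0.0627 with the replicate block. Edem1, a lectin-like protein that steers glycoproteins to degradation, had 81.3, 88.5, 62.2 and 64.6 CPM in 4n and 85.4, 106, 88.3 and 89.3 CPM in 2n replicates 1 to 4. Within each culture its 4n value was the lower one. The log2 fold change was -0.32 ± 0.14, with an adjusted p of 0.301 in edgeR and 0.0896 with the replicate block. Syvn1, the HRD1 ligase itself, had 63.7, 56.3, 41.6 and 49.6 CPM in 4n and 63.0, 50.6, 51.9 and 54.6 CPM in 2n replicates 1 to 4. Here the direction varied from culture to culture, and the log2 fold change was -0.06 ± 0.15.

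All 4 genes of the sensors and XBP1 had negative log2 fold changes, with a median of -0.24 and no adjusted p below 0.355. With the replicate block the lowest adjusted p was 0.0867 in edgeR, for Atf6. Atf6 had 162, 142, 113 and 87.3 CPM in 4n and 167, 176, 166 and 126 CPM in 2n replicates 1 to 4, a log2 fold change of -0.33 ± 0.20. Eif2ak3 had 39.4, 36.5, 29.6 and 35.6 CPM in 4n and 46.8, 36.6, 38.5 and 49.5 CPM in 2n replicates 1 to 4, a log2 fold change of -0.28 ± 0.14. In both genes the 4n library was the lower one in every culture, though culture 2 barely differed for Eif2ak3. Ern1 had 55.5, 38.1, 36.9 and 42.9 CPM in 4n and 63.7, 41.8, 41.4 and 52.7 CPM in 2n replicates 1 to 4, a log2 fold change of -0.20 ± 0.19. Xbp1 was the steadiest gene of the group, with 109, 118, 101 and 111 CPM in 4n and 113, 117, 110 and 115 CPM in 2n replicates 1 to 4. Its log2 fold change of -0.05 ± 0.10 had a 95% interval of -0.27 to 0.17.

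All 8 genes of the ATF4 axis had negative log2 fold changes, with a median of -0.30, and none passed (lowest adjusted p 0.466 in edgeR). With the replicate block all 8 were negative too, and again none passed. Nearest to the threshold there were Chac1 at -0.45 ± 0.11 (adjusted p 0.0589 in edgeR) and Asns at -0.51 ± 0.15 (adjusted p 0.0781). Atf4 had 605, 564, 426 and 421 CPM in 4n and 582, 605, 582 and 433 CPM in 2n replicates 1 to 4. The highest library of each group was at the same level, and the log2 fold change of -0.13 ± 0.17 had a 95% interval of -0.51 to 0.25. Ddit3, which encodes the transcription factor CHOP, had 28.7, 27.7, 31.1 and 18.7 CPM in 4n and 38.2, 32.9, 52.8 and 19.6 CPM in 2n replicates 1 to 4. Its 4n library was the lower one in 4 of 4 cultures, yet culture 4 of both fractions lay under every other library, and the log2 fold change was -0.43 ± 0.28 with a 95% interval of -1.07 to 0.20. Of the 32 genes, 10 were lower in the 4n library of all 4 cultures, or 31.2% against 19.7% of all genes, and 2 were higher in all 4, or 6.25% against 20.2%.

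The difference between the fractions was uneven over the cultures. Within cultures 1 to 4 the median log2 difference of 4n minus 2n over the 8 ATF4 axis genes was -0.02, -0.22, -0.73 and -0.19, and over all 32 genes it was 0.04, -0.07, -0.30 and -0.14. The low value of culture 3 coincided with the library that had the highest cardiomyocyte marker share, 2.52% in 4n replicate 3 against 0.0800% in 2n replicate 3, and the lowest fibroblast marker share, 2.45% against 6.19%. Its mitochondrial share was 25.9% in 4n and 3.37% in 2n, but 4n replicates 2 and 4 had similar shares, 25.0% and 24.1%, while 4n replicate 1 stood apart at 3.71%. The part of cell composition or of mitochondrial RNA in these differences was not tested.

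The second comparison asked how much the same genes varied between cultures once the mean difference between fractions was removed. Here 7 of the 32 genes passed, or 21.9%, against a background of 1066 of 12983 genes, or 8.21%, by an edgeR quasi-likelihood F test over the 4 cultures. Among them were 4 of the 8 ATF4 axis genes (50.0%), namely Chac1, Trib3, Ddit3 and Phgdh, with 2 of 14 chaperones (Creld2 and Dnajb11), 1 of 6 ERAD genes (Herpud1) and 0 of 4 sensor genes. At an unadjusted p under 0.05 there were 18 of the 32 genes, 2 of them sensor genes, against 3930 of all 12983 genes. DESeq2's likelihood ratio test called 17, with 2 sensor genes among them and a background of 17.6% of the genes given an adjusted p there. The range of the culture means was 1.02 on the log2 scale in the median of the ATF4 axis genes and 0.56 in the median of the 32, while the median over all genes tested was 0.54.

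The number of calls rested on single libraries. It was 4 without 4n replicate 1, 1 without 4n replicate 2, 14 without 4n replicate 3 and 1 without 4n replicate 4. In the same order, 4.98%, 1.23%, 14.7% and 0.397% of all genes were called. It was 5 without 2n replicate 1, 1 without 2n replicate 2, 19 without 2n replicate 3 and 1 without 2n replicate 4. Beside these, 5.17%, 1.05%, 25.1% and 0.472% of all genes were called. Chac1 was called in every one of these 8 fits, with adjusted p-values up to 0.0469 in edgeR, and in the fits without replicate 2 or replicate 4 of either fraction it was the only one. The background in these fits ran between 0.397% and 25.1% of genes.

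**Figure D2:**
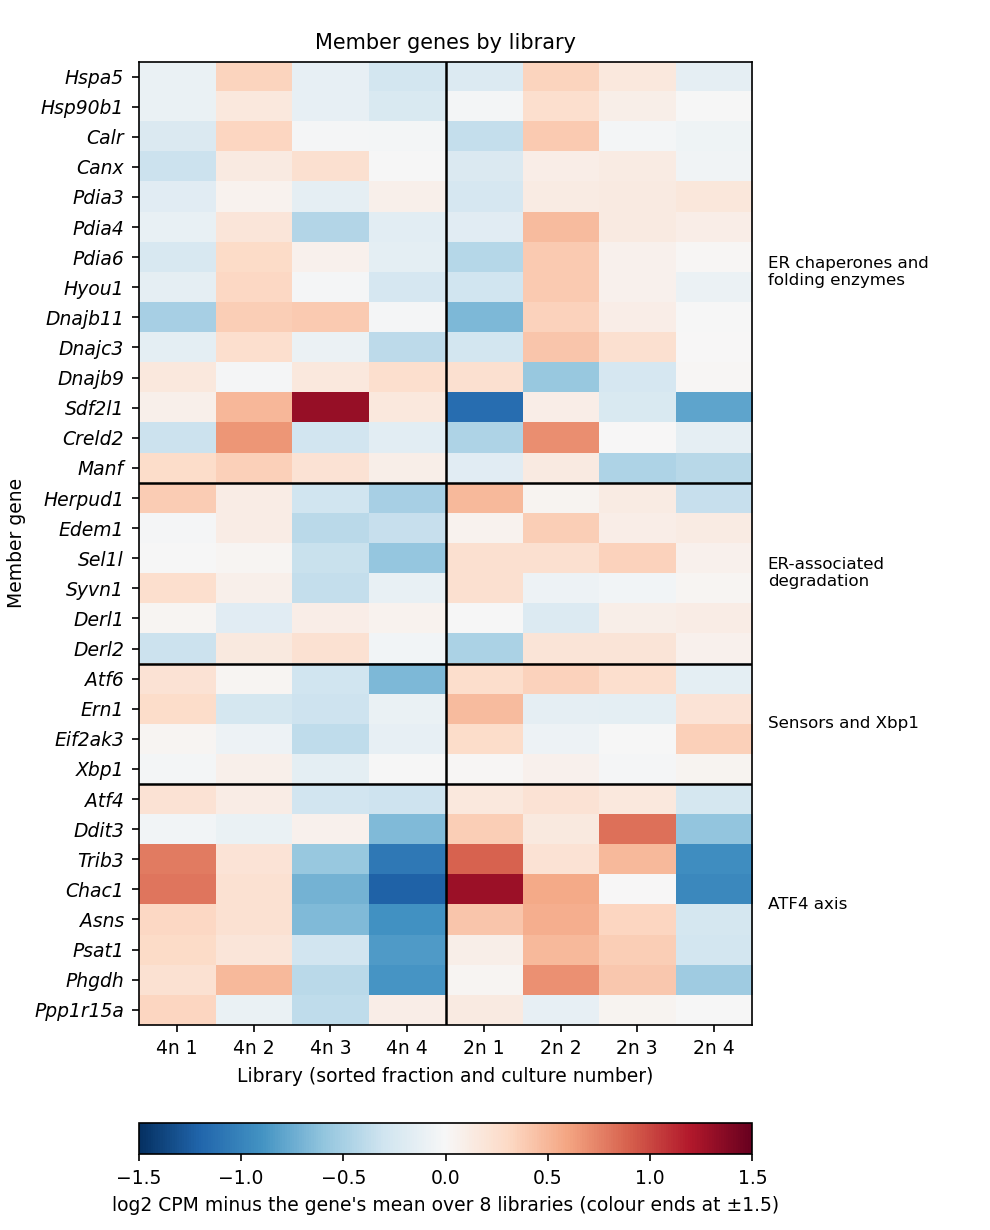
Log2 CPM of the 32 tested genes (vertical axis, grouped by role) in the 4n and 2n libraries of cultures 1 to 4 (horizontal axis), each minus the gene's mean over the 8 libraries. The ATF4 axis genes except Ppp1r15a are lowest in culture 4 in both fractions, and most chaperones are highest in culture 2.

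**Figure D3:**
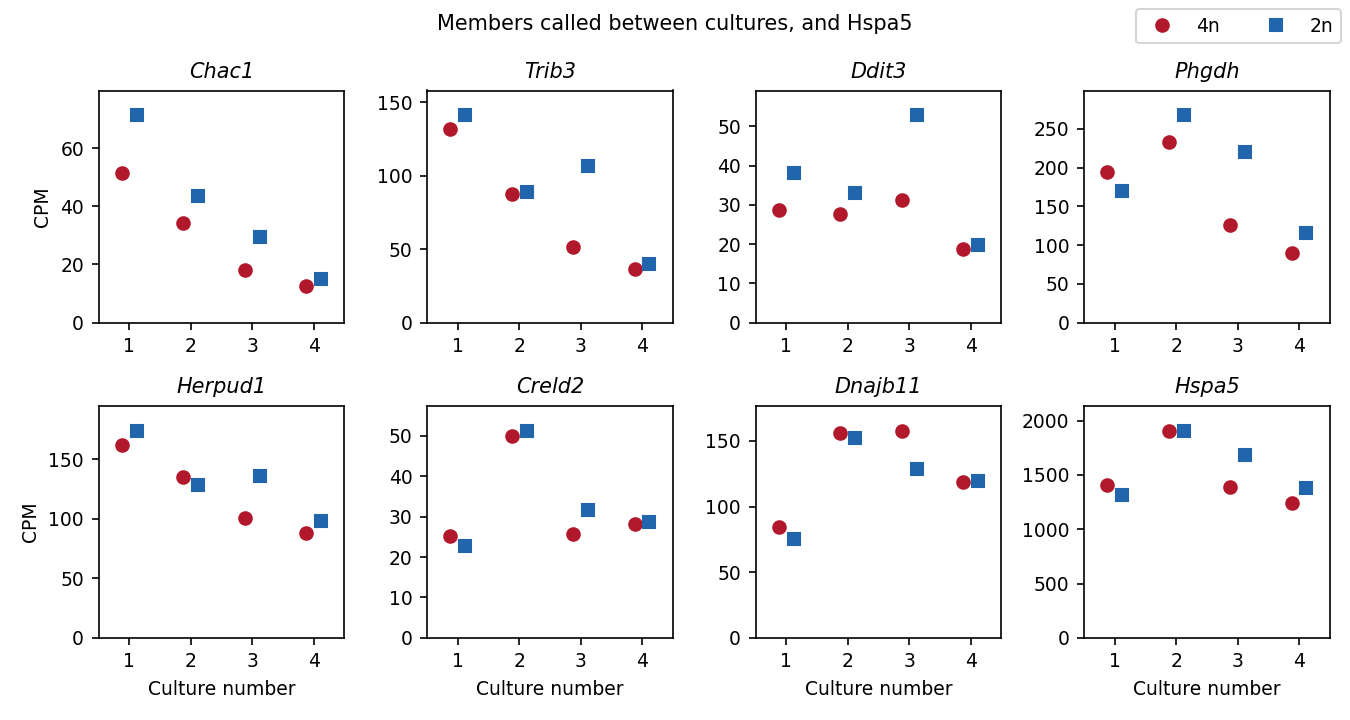
CPM (vertical axis, from 0) by culture number (horizontal axis) for the 7 genes called between cultures and Hspa5, with 4n as circles and 2n as squares, 1 library each. Chac1 is highest in culture 1 and lowest in culture 4 in both fractions, Creld2 stands out in culture 2, and Dnajb11 is lowest in culture 1.

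Chac1, which encodes an enzyme that breaks down glutathione and is a known target downstream of ATF4, varied most of the 32 genes (chromosome 3, 111160205 to 111163425, Rnor_6.0). It had 51.5, 34.3, 18.0 and 12.6 CPM in 4n and 71.3, 43.6, 29.4 and 15.0 CPM in 2n cells of cultures 1 to 4. The order of the cultures was the same in both fractions. The culture means spanned 2.13 on the log2 scale (adjusted p 0.00264 in edgeR). Culture 1 lay 1.39 ± 0.12 above the mean of the other cultures (adjusted p 0.00458) and culture 4 lay at -1.46 ± 0.14 against it (adjusted p 0.00236 in edgeR). These contrasts share libraries and are not independent of each other.

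Trib3, a pseudokinase that dampens ATF4 signalling (chromosome 3, 147813473 to 147819571), had 132, 87.8, 51.4 and 36.4 CPM in 4n and 141, 88.5, 107 and 40.0 CPM in 2n cells of cultures 1 to 4. Culture 1 was highest and culture 4 lowest in both fractions, whereas culture 3 was on different sides of culture 2. The culture means spanned 1.83 on the log2 scale (adjusted p 0.0299 in edgeR), with culture 1 at 1.10 ± 0.19 (adjusted p 0.0261) and culture 4 at -1.35 ± 0.22 (adjusted p 0.0227) against the others. Ddit3 (chromosome 7, 70580198 to 70585084), with the values given above, was highest in culture 3 and lowest in culture 4 in both fractions. Its culture means spanned 1.08 on the log2 scale (adjusted p 0.0428 in edgeR), with culture 4 at -0.84 ± 0.16 against the others (adjusted p 0.0286 in edgeR).

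The amino acid synthesis genes of the axis were lowest in culture 4 as well. Phgdh, the first enzyme of serine synthesis (chromosome 2, 200484246 to 200513564), had 194, 233, 126 and 90.1 CPM in 4n and 170, 267, 220 and 115 CPM in 2n cells of cultures 1 to 4. Culture 2 was highest and culture 4 lowest in both fractions, with a range of 1.29 on the log2 scale (adjusted p 0.0453 in edgeR) and culture 4 at -0.96 ± 0.19 against the others (adjusted p 0.0355 in edgeR). Asns, asparagine synthetase, had 235, 222, 119 and 101 CPM in 4n and 252, 276, 237 and 157 CPM in 2n cells of cultures 1 to 4. It was also lowest in culture 4 in both fractions and narrowly missed the threshold (adjusted p 0.0593 in edgeR). Psat1, the next enzyme of serine synthesis, had 88.6, 82.4, 59.6 and 40.5 CPM in 4n and 77.4, 102, 93.7 and 60.3 CPM in 2n cells of cultures 1 to 4, with an adjusted p of 0.0912 in edgeR.

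Counting Atf4, 7 of the 8 ATF4 axis genes, or 87.5%, were lowest in culture 4 in both fractions, against 9.55% of all genes tested. The exception was Ppp1r15a, the subunit that directs dephosphorylation of eIF2α, whose 195 to 318 CPM in 4n and 234 to 280 CPM in 2n cells gave no call (adjusted p 0.298 in edgeR). Atf4 mRNA itself spanned 0.48 on the log2 scale over the cultures and did not pass (adjusted p 0.174 in edgeR). Against the other cultures, 5 of the 32 genes were called lower in culture 4, namely Chac1, Trib3, Phgdh, Ddit3 and Herpud1, where the background was 0.439% of genes, and 0 were called higher, where it was 3.67%. At an unadjusted p under 0.05, 10 were lower and 0 higher in culture 4, while the number of all genes at that level was not counted. The 5 calls became 1 without culture 2 and 9 without culture 3. Calls over all genes were not counted in these refits, so whether the change is particular to these genes is not known.

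Herpud1, an ER membrane protein of the HRD1 complex (chromosome 19, 11046909 to 11057254), was the 1 ERAD gene called. It had 162, 135, 101 and 88.3 CPM in 4n and 174, 128, 136 and 98.1 CPM in 2n cells of cultures 1 to 4. Culture 1 was highest and culture 4 lowest in both fractions (adjusted p 0.0430 in edgeR). The log2 difference from the other cultures was 0.57 ± 0.11 for culture 1 (adjusted p 0.0313) and -0.56 ± 0.12 for culture 4 (adjusted p 0.0498 in edgeR). Derl2, which helps move proteins out of the ER, had 19.0, 26.2, 27.8 and 23.1 CPM in 4n and 17.0, 27.2, 27.0 and 24.8 CPM in 2n cells of cultures 1 to 4. It was lowest in culture 1 in both fractions, at -0.53 ± 0.12 against the others on the log2 scale (adjusted p 0.0410 in edgeR), although its F test over the 4 cultures did not pass (adjusted p 0.0863 in edgeR).

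The chaperones followed another order. Of the 14, 9 were highest in culture 2 in both fractions, or 64.3% against 10.9% of all genes, and 7 were lowest in culture 1 in both fractions, or 50.0% against 17.2%. Creld2, an ER stress-inducible protein with disulfide isomerase activity (chromosome 7, 129812789 to 129819634), had 25.2, 50.0, 25.8 and 28.3 CPM in 4n and 22.8, 51.3, 31.6 and 28.8 CPM in 2n cells of cultures 1 to 4. Both libraries of culture 2 stood well above the rest (adjusted p 0.0180 in edgeR), at 0.91 ± 0.12 against the other cultures on the log2 scale (adjusted p 0.00972 in edgeR). Dnajb11, a J-domain partner of BiP (chromosome 11, 81741297 to 81757813), had 84.8, 156, 158 and 119 CPM in 4n and 75.3, 152, 128 and 119 CPM in 2n cells of cultures 1 to 4. Both libraries of culture 1 were the lowest (adjusted p 0.0196 in edgeR), at -0.79 ± 0.11 against the others (adjusted p 0.0119 in edgeR).

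Hspa5 had a culture range of 0.54 on the log2 scale and did not pass (adjusted p 0.142 in edgeR). Pdia6, a disulfide isomerase, had 407, 588, 505 and 434 CPM in 4n and 357, 630, 505 and 486 CPM in 2n cells of cultures 1 to 4 (adjusted p 0.0733 in edgeR). Hyou1, a large Hsp70-like partner of BiP, had 279, 380, 302 and 257 CPM in 4n and 248, 400, 319 and 288 CPM in 2n cells of cultures 1 to 4 (adjusted p 0.0755 in edgeR). Both were highest in culture 2 in both fractions without passing the threshold. The other 9 chaperones had adjusted p-values between 0.0873 and 0.348 in the edgeR F test, with 775 to 1677 CPM in the 4 most abundant of them, Hsp90b1, Calr, Canx and Pdia3. Atf6 had an adjusted p of 0.0868 in edgeR.

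Against the other cultures, 4 genes were called higher in culture 1 (Chac1, Trib3, Herpud1 and Ern1), where the background was 4.53%, and 3 lower (Dnajb11, Derl2 and Creld2), where it was 3.40%. Ern1 was the sensor gene nearest to a call in the F test (adjusted p 0.0501 in edgeR), and its log2 difference in culture 1 was 0.50 ± 0.10 (adjusted p 0.0293). In culture 2, Creld2 was the 1 gene called higher (background 0.670%) and 0 were called lower (background 1.97%), while at an unadjusted p under 0.05 the counts were 14 and 3. In culture 3, 0 were called higher (background 0.146%) and 0 lower (background 0.139%), while at an unadjusted p under 0.05 they were 4 and 2. How many of all genes had an unadjusted p under 0.05 in these contrasts was not counted, and DESeq2 was not run on them. The calls for culture 1 became 1 higher and 0 lower without culture 2, and 1 and 1 without culture 4, and without culture 3 the lower calls became 5. The calls higher in culture 2 became 5 without culture 1, 10 without culture 3 and 0 without culture 4. Calls over all genes were not counted in these refits either. Xbp1, with a range of 0.15 on the log2 scale (adjusted p 0.721 in edgeR), had the smallest culture range of the 32.

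**Figure D4:**
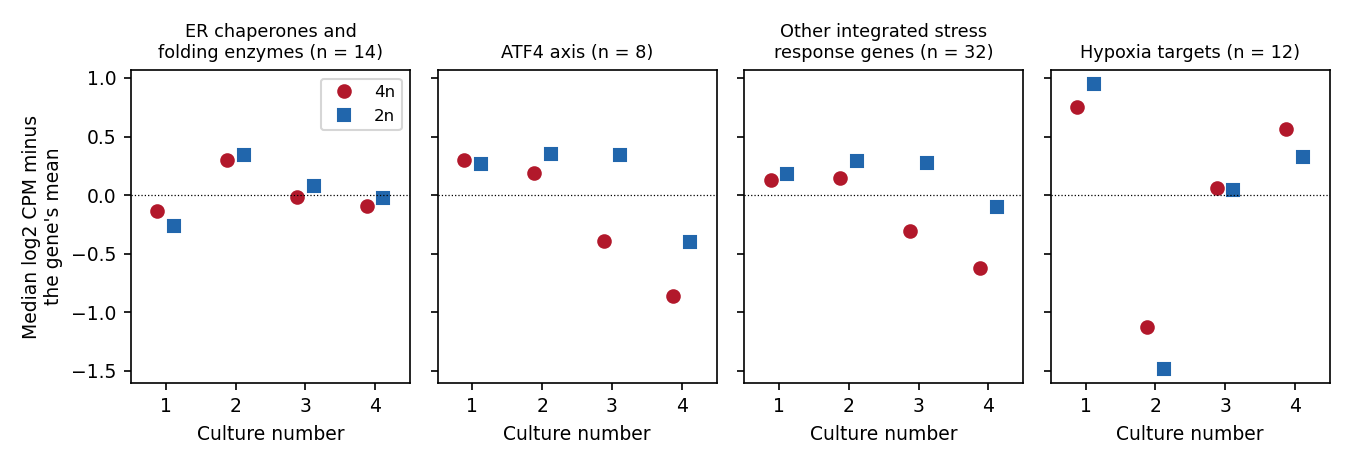
Median over a gene list of log2 CPM minus each gene's own mean over 8 libraries (vertical axis) by culture number (horizontal axis), with 4n as circles and 2n as squares. ATF4 axis medians are lowest in culture 4, at -0.87 in 4n and -0.40 in 2n, chaperone medians are highest in culture 2, and hypoxia target medians are lowest in culture 2.

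Other genes of the same pathways were counted for context. Between 4n and 2n cells, edgeR called 0 of 38 further ER folding and degradation genes, beside 2.68% of all genes. It also called 0 of 32 tested genes of a further integrated stress response list. At an unadjusted p under 0.05 there were 5 and 1, beside 2256 of all 12983 genes. DESeq2 called 0 of both, beside 6.82% of all genes. Of 9 tested cytosolic heat shock genes, Hspb1, a small heat shock protein abundant in muscle, was the 1 called. It had 126, 186, 281 and 211 CPM in 4n and 84.4, 96.2, 89.0 and 84.8 CPM in 2n replicates 1 to 4. All 4n libraries lay above all 2n libraries, with a log2 fold change of 1.18 ± 0.22 (adjusted p 0.0282 in edgeR), and the summed cardiomyocyte marker share was likewise higher in every 4n than in every 2n library. The part of cell composition in this difference was not tested.

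Between cultures, 4 of 38 further ER genes (Ero1l, Creb3l1, Creb3l2 and Ufd1l), 4 of 32 further integrated stress response genes (Ddit4, Stc2, Mthfd2 and Cebpb) and 0 of 9 heat shock genes were called by edgeR. The first of these edgeR counts is 10.5% and the next 12.5%, both near the edgeR background of 8.21% of all genes. In the same order of lists, 14, 21 and 5 genes had an unadjusted p under 0.05, beside 3930 of all 12983 genes. DESeq2 called 10 of 38, 19 of 32 and 3 of 9, where its background was 17.6%. The further integrated stress response list was thus near the background in edgeR's adjusted calls only. Ero1l, the oxidase that recharges disulfide isomerases, had 336, 71.0, 141 and 209 CPM in 4n and 517, 80.2, 220 and 310 CPM in 2n cells of cultures 1 to 4. It was highest in culture 1 and lowest in culture 2 in both fractions (adjusted p 0.00214 in edgeR). Mthfd2, a mitochondrial enzyme of one-carbon metabolism, had 94.1, 131, 84.7 and 53.7 CPM in 4n and 89.9, 141, 117 and 73.2 CPM in 2n cells of cultures 1 to 4. It was highest in culture 2 and lowest in culture 4 in both fractions (adjusted p 0.0292 in edgeR). The other called genes of that list had another order. Ddit4 (adjusted p 0.00266 in edgeR) and Stc2 (0.00699) were highest in culture 1 and lowest in culture 2 in both fractions. Cebpb (adjusted p 0.0403 in edgeR) was highest in culture 1 and lowest in culture 3 in both fractions. Of the 32 further integrated stress response genes, 19 were lowest in culture 4 in both fractions, or 59.4% against 9.55% of all genes.

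Other measures moved with the cultures too. Of 12 hypoxia target genes 10 were called between cultures, or 83.3% against 8.21% of all genes, and their median log2 deviation in cultures 1 to 4 was 0.76, -1.12, 0.06 and 0.56 in 4n and 0.94, -1.48, 0.04 and 0.33 in 2n cells. The culture with the highest chaperone medians, culture 2, was thus the one with the lowest hypoxia target medians, and culture 1 had the opposite. The fibroblast marker share was 5.46%, 4.47%, 2.45% and 2.67% of counts in 4n and 6.01%, 5.99%, 6.19% and 4.78% in 2n cells of cultures 1 to 4, so culture 4 was lowest in 2n, and cultures 3 and 4 were the low ones in 4n. The single fibroblast markers did not share that order. Of the 9 tested, 4 were lowest in culture 4 in both fractions, beside 9.55% of all genes, and 3 were highest, beside 10.4%. Lum (0.84 ± 0.12 against the other cultures on the log2 scale, adjusted p 0.0127 in edgeR) and Dcn (0.73 ± 0.15, adjusted p 0.0440) were called higher there, where the background was 3.67%.

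Some markers of vessel cells were higher in culture 4. Of the 6 endothelial markers 3 were called higher there, among them Cdh5 at 2.79 ± 0.39 (adjusted p 0.0236 in edgeR) and Emcn at 2.51 ± 0.33 (adjusted p 0.00790), and of the 6 smooth muscle and pericyte markers 3 were, namely Abcc9 at 2.09 ± 0.11, Rgs5 at 2.35 ± 0.15 and Kcnj8 at 1.98 ± 0.17 on the log2 scale. The background for culture 4 was 3.67% higher. The rest of these 2 lists were not called there. Among the smooth muscle and pericyte markers, Cspg4 was at -0.35 ± 0.20, Pdgfrb at -0.11 ± 0.16 and Myh11 at 0.91 ± 0.25. Of the endothelial markers, Kdr was at 2.16 ± 0.43, Tie1 at 1.81 ± 0.36 and Tek at 0.21 ± 0.19. Of the 11 cardiomyocyte markers, Myl7 was the 1 called higher in culture 4. These genes were named after their values were seen. The part of the hypoxia response and of cell composition in the culture differences was not tested. The labels give a replicate number, and the descriptions begin with a code shared within a culture. That code has the form of a month and day, but its meaning is not stated. No date or batch is named for the cell preparation, the hypoxia run, the sort or the libraries, so these cannot be told apart from the culture.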

How the data were processed

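For each of the 8 libraries the authors deposited a count and an FPKM value per gene. Alignment was to Rnor_6.0 with HISAT2 2.0.4, per the submitters' processing notes. That build is of Rattus norvegicus, whereas the labels name Rattus rattus. How reads were counted, and whether strand was used, is not given in the sources used here, so genes that overlap on opposite strands cannot be told apart. All deposited counts were whole and unscaled. The deposited FPKM values are, by comparison with the counts, those counts scaled by gene and by library total.

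Tests on the counts used edgeR 4.0.16 under R 4.3.3 (filterByExpr, TMM, robust quasi-likelihood, two-sided, Benjamini-Hochberg adjustment over 12983 genes, threshold 0.05). CPM used TMM-scaled library sizes, and log2 CPM a prior count of 2. The 4n against 2n model held the group alone. The culture test held the group and the replicate number, and contrasts set each culture against the mean of the other 3. The alternatives were DESeq2 1.42.0, its size factors, no filter on low counts, mitochondrial genes left out, a replicate block, and each library left out. The DESeq2 tests were run without filterByExpr, so their counts and shares are not out of the 12983 genes. Test code was checked on simulated data. There the culture test missed most genes changed by a small fold in a single culture and many of those changed by a larger one, so a gene not called between cultures was not shown to be stable.

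Same-numbered libraries deviated together from their group means (correlations over genes of 0.43, 0.58, 0.27 and 0.65 for numbers 1 to 4), and their descriptions begin with a shared code. Libraries were paired by number on that ground, not by a stated protocol. No 2 libraries of a group agreed within sampling noise.

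The genes, lists and tests were chosen with earlier results of these data known. Library values were given for Hspa5, Xbp1, Atf4, Ddit3, genes called in either comparison and up to 4 genes per role with the smallest p in each comparison, which made 25 genes. A TMM or CPM value carries counting error that shrinks with depth, and 14783521 counts was the lowest depth. A p-value weighs a difference against a spread between these libraries, and that spread is not the same in every test. In the comparison of the fractions by group alone, it is the spread between libraries of the same group. The culture test, its contrasts and the replicate block fit use how far the difference between fractions varied from culture to culture. The sorted fractions thus stood as the replicates of a culture, and the culture p-values do not rest on repeats of any culture. No sequences were printed, since no sequence source was used here.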

Additional observations from a re-analysis of the deposited data

Results flagged for a closer look

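In 50 screens of a gene's 4 libraries in 1 fraction, 2 had a library far from the other 3 by Dixon's test, which flags about 1 group in 20 by chance. Creld2 in 4n cells stood at 49.9669 CPM in culture 2, while the other 4n libraries lay between 25.2 and 28.3 CPM. The 2n library of culture 2 was the highest of its fraction too, at 51.3 CPM. Atf4 in 2n cells stood at 433.271 CPM in culture 4, while the other 2n libraries lay between 582 and 605 CPM. The 4n library of culture 4 was the lowest of its fraction as well, at 421 CPM, with culture 3 close to it at 426 CPM.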

How the results depend on the processing

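For 4n against 2n, the count of genes called was 347 higher and 1 lower. It became 554 higher and 79 lower, with 2 of the 32 genes studied, under the replicate block, 931 and 82 with DESeq2, and the lower count became 2 with mitochondrial genes left out. It was 870 and 90 without 4n replicate 1, and 558 and 50 under the block without culture 3. Leaving out libraries or cultures moved it between 0 and 1254 higher and between 0 and 399 lower, with 0 to 5 of the 32, and moved the chaperone median between -0.15 and 0.10. Signs turned for genes near 0 that were called under none of the alternatives. Under the block Derl2 became 0.0095. Under the block without culture 2, Pdia6 became 0.0077 and Derl2 0.030, without culture 3, Creld2 became 0.028 and Syvn1 0.012, and without culture 4, Pdia6 became 0.030, Hyou1 0.0048 and Derl2 0.047. With libraries left out log2 fold changes ran from -0.35 to 0.22 (Creld2), -0.16 to 0.10 (Pdia6), -0.14 to 0.10 (Derl2), -0.16 to 0.039 (Syvn1), -0.17 to 0.093 (Hyou1), -0.048 to 0.28 (Dnajb11), -0.31 to 0.011 (Herpud1) and -0.22 to 0.026 (Hspa5). Of 425 alternative values of named genes, 392 kept direction and side of the threshold, 26 changed sign and 7 became called.

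Between cultures, 1066 genes were called. The DESeq2 likelihood ratio test called 2380 genes, 17 of the 32, 8 chaperones and 2 sensor genes, and 1 sensor gene was called with DESeq2 size factors and with mitochondrial genes left out. With single libraries left out, calls ran from 52 to 3308 genes, 1 to 19 of the 32, 1 to 8 ATF4 axis genes, 0 to 8 chaperones, 0 to 1 ERAD genes and 0 to 2 sensor genes. With cultures left out, culture 1 had 1 to 6 higher and 0 to 5 lower calls, culture 2 had 0 to 10 and 0 to 1, and culture 4 had 1 to 9 lower. These are calls among the 32, and calls over all genes were not counted there. Adjusted p-values of named genes kept their side in 238 of 300 cases, lost the call in 32 and gained one in 30. Single-culture contrasts kept it in 56 of 78 and lost it in 22. The cause was not tested. With 4 cultures and 1 library of each fraction per culture, small differences, and in simulated data many larger ones, were not detectable.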
